A study of Mus musculus with 8 samples.

Results

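The 35 genes described here build the peroxisome or carry its lipid enzymes and transporters, and their RNA was measured in brown adipose tissue (BAT) of 4 WT and 4 Cd36KO libraries. They were taken by name from the 31053 genes of the count table: 13 Pex genes, which encode the peroxins of peroxisome assembly and growth, and 22 genes of peroxisomal lipid enzymes, acyl transporters, catalase and membrane proteins. Every one of the 35 was found, and every one had counts. The labels give mice of strain C57BL6/J at 8 weeks, with the genotype WT or Cd36KO as the only difference between the groups, and name no treatment. CD36 is a scavenger receptor for lipids and vesicles, and the comparison asked how the BAT transcriptome differed between Cd36KO and WT. The study made a germline knockout and a knockout restricted to myeloid cells, CD36 flox/flox crossed with Csf1rCre, and it attributes its BAT transcriptome to the myeloid-restricted mice, called MACsCD36KO. The labels do not say which of these the Cd36KO libraries are. The study's legend for that transcriptome gives the same age as the labels, while its methods give a later age at sacrifice for MACsCD36KO mice.

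Peroxisomes are small organelles bounded by a single membrane. They shorten fatty acids that mitochondria handle poorly, such as very long, branched and dicarboxylic chains, and their first oxidation step passes electrons to oxygen and makes hydrogen peroxide, which catalase removes. They also start the synthesis of ether lipids. Brown fat is rich in peroxisomes, and chain-shortened products leave for the mitochondria, where oxidation is coupled to heat production.

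Total counts per library ranged from 2679785 to 4097953, and 13368 to 14698 genes had a count in each. The tissue label, BAT, stands beside a cell type label that names the stromal vascular fraction, from which adipocytes are removed. General adipocyte markers nevertheless summed to between 36001 and 67304 normalized counts in each library, where a normalized count is the count divided by the library's size factor. Xist had between 772 and 1588 counts in all 8 libraries, whereas the study's methods state male mice. Cd36, on chromosome 5, was still abundant, with 2918 ± 454 normalized counts in the WT and 2087 ± 216 in the Cd36KO libraries (SD, n = 4 each). Its log2 fold change, Cd36KO minus WT as throughout, was -0.48 (SE 0.16), which did not pass the threshold (DESeq2 adjusted p = 0.0602). It passed in 3 of 17 alternatives, those with TMM factors, with the muscle score and without WT 4 (log2 fold change -0.56), and the estimate stayed between -0.66 and -0.38. The 4 Cd36KO values nevertheless lay below all 4 WT values, and the deleted stretch is not given in the sources used here. One count column of the Cd36KO group carries no number, and its library is called the unnumbered Cd36KO library. WT 1 stood apart. Its 11 white fat markers summed to 892 normalized counts where WT 2 to 4 had 4400 to 5349, and its 15 skeletal muscle markers summed to 61099 against 1010 to 13573 in the other WT and 356 to 9220 in the Cd36KO libraries.

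Of the 35 genes, 34 had enough counts for an adjusted p, and 2 of these 34 passed the threshold of 0.05 after adjustment over all 9619 genes tested. Ech1 rose in Cd36KO, and Abcd2 fell. Over all genes tested, 1.42% were called higher and 1.53% were called lower. The estimate was positive for 17 of the 34 and negative for the other 17, against 49.2% positive over all genes. The median log2 fold change of the 34 was -0.01, and that of all genes tested was also -0.01. Without adjustment, p was under 0.05 for 3 that were higher, Ech1, Phyh and Acaa1a, and for 3 that were lower, Abcd2, Hacl1 and Ehhadh, where 7.69% and 7.88% of all genes reached that level. The exception without an adjusted p was Amacr, the racemase that readies branched chains for oxidation, with 41 raw counts in all libraries together. The quasi-likelihood test of edgeR called none of 34 members, of which 7 had an unadjusted p under 0.05, against 1580 of 9793 genes in all. After adjustment it called 0.143% of all genes. Neither Ech1 nor Abcd2 was thus called by both tests.

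**Figure D1:**
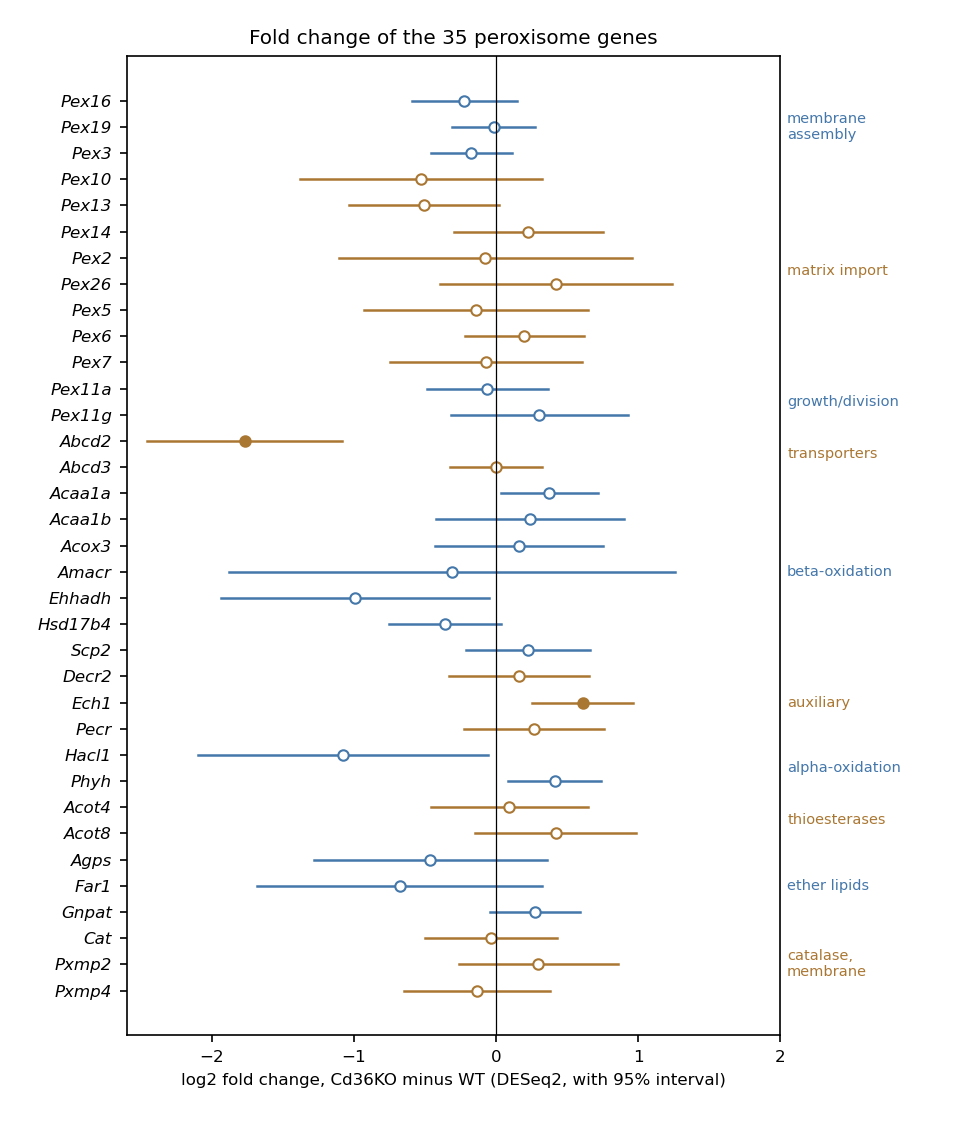
Log2 fold change (Cd36KO minus WT) of each of the 35 genes on the x axis, with genes in rows ordered by role and bars giving the 95% interval of the DESeq2 estimate; the colours only separate neighbouring roles. Filled points passed an adjusted p of 0.05, and they are Abcd2 at -1.77 and Ech1 at 0.61.

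Membrane assembly comes first in the making of a peroxisome. Pex19 is the chaperone and receptor of newly made membrane proteins, Pex3 docks it at the membrane, and Pex16 helps to recruit Pex3. None of the 3 passed the test. Pex19 had 392 ± 45.5 normalized counts in the WT and 388 ± 21.5 in the Cd36KO libraries, and the 95% interval of its log2 fold change ran from -0.31 to 0.28. Pex16 had 173 ± 25.7 in WT and 148 ± 11.6 in Cd36KO (log2 fold change -0.22, DESeq2 adjusted p = 0.62).

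Pex3, on chromosome 10 (GRCm38, 13523842 to 13553142, minus strand), had 291, 321, 339.9 and 295 normalized counts in WT 1 to 4. Its Cd36KO values were 281 in the unnumbered library and 289, 267 and 269 in Cd36KO 2, 3 and 4. The groups thus did not overlap, but the nearest values, 291 and 289, almost touched, and the mean went from 312 ± 23.2 to 276 ± 10.2 (SD, n = 4 each). An exact two-sided permutation test gave p = 0.0286, the smallest that 4 against 4 libraries allow. After adjustment over all genes the change was not significant (log2 fold change -0.17, SE 0.14, DESeq2 adjusted p = 0.618). Among the 5528 genes with a mean of at least 50 normalized counts, 3.96% had all Cd36KO values below all WT values, and Pex3 was the single such case among the 24 members at that level.

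The matrix import machine brings folded enzymes into the organelle. Pex5 and Pex7 are the receptors of the C-terminal and N-terminal targeting signals, Pex13 and Pex14 form the docking site, Pex2 and Pex10 are RING ubiquitin ligases that mark the receptors for recycling, and Pex6 is an export ATPase held to the membrane by Pex26. None of these 8 genes passed the test, and 3 of the 8 estimates were positive. Pex13 had 75.7 ± 18.3 normalized counts in the WT and 53.0 ± 7.15 in the Cd36KO libraries (log2 fold change -0.51, SE 0.27, DESeq2 adjusted p = 0.352). Its WT 1 library, at 48.7, lay within the Cd36KO range of 42.3 to 57.2, and the other WT libraries lay at 79.8 to 87.0. Pex14, its partner at the docking site, had 132 ± 46.1 in WT and 155 ± 37.6 in Cd36KO (log2 fold change 0.23, SE 0.27).

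The receptor Pex5 had 39.8 ± 12.9 normalized counts in the WT and 36.1 ± 16.2 in the Cd36KO libraries, and Pex7 had 32.2 ± 9.86 in WT and 30.9 ± 5.66 in Cd36KO. Pex6 had 118 ± 24.3 in WT and 136 ± 13.7 in Cd36KO. The remaining import genes, Pex2, Pex10 and Pex26, had group means between 12.8 and 23.7 normalized counts, so that only large changes were detectable at this depth. Among these, Pex10 had 16.2 to 20.0 normalized counts in WT and 6.68 to 16.1 in Cd36KO. Its log2 fold change was -0.53 (SE 0.44, DESeq2 adjusted p = 0.613).

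Pex11a and Pex11g elongate the membrane before a peroxisome divides. Pex11a had 633 ± 215 normalized counts in the WT and 607 ± 39.9 in the Cd36KO libraries (log2 fold change -0.06, 95% interval -0.49 to 0.37). The WT libraries alone spanned 456 to 946, while the Cd36KO libraries spanned 563 to 653. Pex11g had 47.5 ± 15.6 in WT and 58.7 ± 12.2 in Cd36KO (log2 fold change 0.31, SE 0.32).

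Acyl chains enter through ABC transporters of the peroxisomal membrane. The members included Abcd2, which carries very-long-chain and unsaturated acyl-CoAs and is known as an adipose transporter, and Abcd3, the abundant membrane protein that carries branched and dicarboxylic chains. Abcd2, on chromosome 15 (GRCm38, 91145871 to 91191799, minus strand), had 84.9, 302, 334 and 371 normalized counts in WT 1 to 4. In Cd36KO it had 86.9 in the unnumbered library and 85.2, 72.6 and 75.5 in libraries 2 to 4. WT 1 thus lay inside the Cd36KO range, and the other 3 WT libraries lay far above it.

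The mean of Abcd2 went from 273 ± 129 to 80.05 ± 7.04 (log2 fold change -1.77, SE 0.35, DESeq2 adjusted p = 0.000208). The edgeR test gave an adjusted p of 0.0749, limma on the authors' log2 values gave 0.121, and the exact two-sided permutation test gave p = 0.0857. Without WT 1 the log2 fold change was -2.07. White fat markers moved with Abcd2: 5 of the 7 with an adjusted p were called lower in Cd36KO, and the 11 summed to 892, 4400, 5349 and 4851 normalized counts in WT 1 to 4 and to 779 to 1174 in Cd36KO. Of these markers, Hoxc10, Tcf21 and Wt1 were at 0 in all libraries. The 10 stromal markers summed to 2247 to 2762 in WT and 1849 to 2148 in Cd36KO, and 1 of 10 was called lower, Dpt, with 133 normalized counts in WT 1, 313 to 340.3 in the other WT and 85.8 to 112 in Cd36KO. The 12 macrophage markers summed to 579 to 955 in WT and 643 to 950.4 in Cd36KO, and 1 of 9 with an adjusted p, Cd163, was called lower. The part of these cells in the Abcd2 result was not tested. With a white marker score as covariate, the estimate for Abcd2 turned to 0.35 (SE 0.37, DESeq2 adjusted p = 0.608). By the white marker sums WT 1 was the only WT library near the Cd36KO range, so this fit rests largely on that library. It called 699 of 6592 genes tested, against 284 of 9619 in the main fit. In bulk tissue, fewer cells of a type and less RNA per cell cannot be told apart.

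Abcd3 had 644 ± 123 normalized counts in the WT and 645 ± 30.0 in the Cd36KO libraries. Its log2 fold change was 0.00049 (95% interval -0.32 to 0.33), so the interval left out changes of 1.5-fold or more in either direction. Pex19, Pex3, Pex11a and Cat were the other members with so narrow an interval in this fit. With the white marker score as covariate, the estimates for Pex11a and Cat were 0.68 and 1.07, outside it. For the remaining 30 of the 35 a change of that size lay within the interval.

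**Figure D2:**
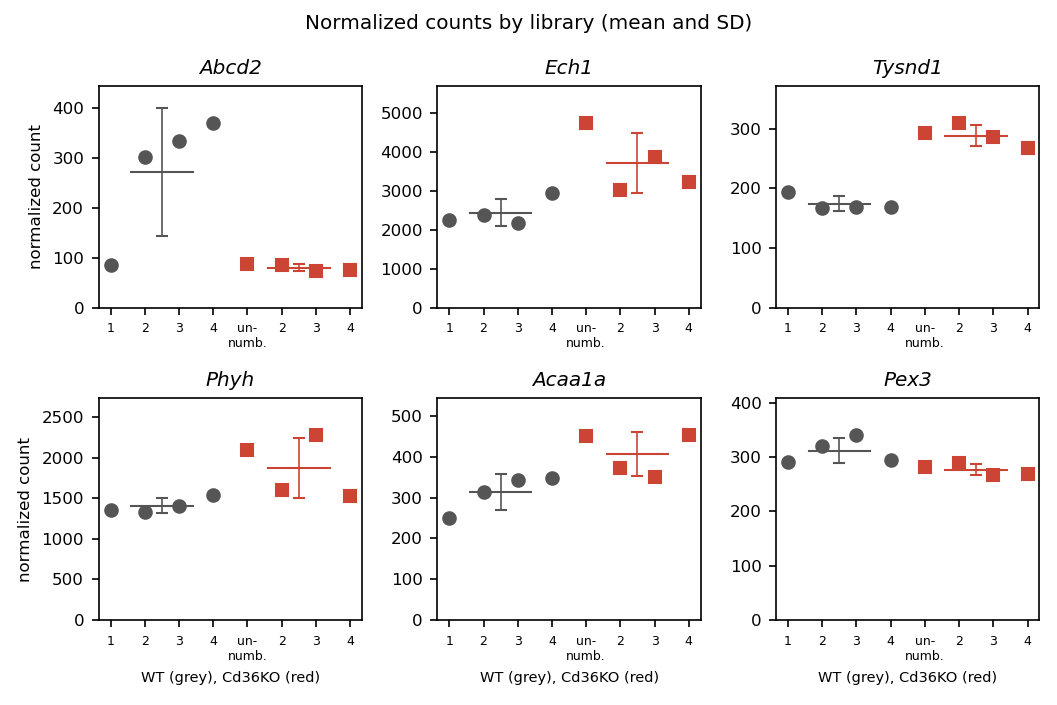
Normalized counts on the y axis (counts divided by size factors) for 6 genes in each library on the x axis, WT 1 to 4 as grey circles and Cd36KO as red squares; horizontal lines are group means and bars are SD (n = 4). WT 1 sits with the Cd36KO libraries for Abcd2 at 84.9, while the groups do not overlap for Ech1, Tysnd1, Acaa1a and Pex3.

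The core of peroxisomal beta-oxidation is an oxidase, a bifunctional enzyme and a thiolase. Among the members these were Acox3, the oxidase of branched chains, Ehhadh and Hsd17b4, the bifunctional enzymes, and the thiolases Acaa1a, Acaa1b and Scp2. None of the 6 passed the test, with 4 positive estimates and 2 negative ones. The negative estimates were those of both bifunctional enzymes. The positive ones of Acaa1b and Acox3 rested on single libraries, since Acaa1b turned to -0.24 without the unnumbered Cd36KO library and Acox3 to -0.08 without WT 1. With the white marker score as covariate, Acox3 was called higher (log2 fold change 1.61, DESeq2 adjusted p = 0.00478), as was Acaa1a (0.89, DESeq2 adjusted p = 0.0253). Ehhadh had 12.6 to 28.9 normalized counts in WT and 9.15 to 10.2 in Cd36KO (log2 fold change -0.99, SE 0.48, DESeq2 adjusted p = 0.285). Hsd17b4 had 238 ± 25.7 in WT and 186 ± 38.5 in Cd36KO (log2 fold change -0.36, SE 0.20, DESeq2 adjusted p = 0.382), and its groups overlapped.

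The thiolase Acaa1a, on chromosome 9 (GRCm38, 119339676 to 119350299, plus strand), had 250.0, 314, 342 and 349 normalized counts in WT 1 to 4. Its Cd36KO values were 451 in the unnumbered library and 373, 349.8 and 453 in libraries 2 to 4. The groups did not overlap, but WT 4 and Cd36KO 3 differed by less than 1 normalized count. The mean went from 314 ± 45.2 to 407 ± 53.3 (log2 fold change 0.38, SE 0.17, DESeq2 adjusted p = 0.256). The exact two-sided permutation p was 0.0286. Its near copy Acaa1b shares 96.0% of 1450 aligned transcript bases with it, so reads may be split between the copies, and exons of Acaa1a overlap Myd88, a gene of 50.4 normalized counts on the other strand. Acaa1b had 188 ± 42.2 in WT and 222 ± 132 in Cd36KO, where the unnumbered library held 413 and the others 111 to 183.

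Scp2, the sterol carrier that is also the thiolase of branched chains, had 447 ± 118 normalized counts in the WT and 524 ± 112 in the Cd36KO libraries (log2 fold change 0.23, SE 0.22). Acox3 had 121 ± 53.2 in WT and 135 ± 12.96 in Cd36KO (log2 fold change 0.16, SE 0.30). Both genes overlapped between the groups.

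Auxiliary enzymes prepare double bonds so that unsaturated chains can pass through the cycle. They were Ech1, a dienoyl-CoA isomerase found in mitochondria as well as peroxisomes, Decr2, a dienoyl-CoA reductase, and Pecr, an enoyl-CoA reductase. Ech1, on chromosome 7 (GRCm38, 28825217 to 28832247, plus strand), had 2235, 2377, 2169 and 2932 normalized counts in WT 1 to 4. In Cd36KO it had 4734 in the unnumbered library and 3006, 3874 and 3215 in libraries 2 to 4. All Cd36KO values were above all WT values, although WT 4 and Cd36KO 2 lay close together. Among genes with a mean of at least 50 normalized counts, 6.91% were separated in this direction, against 2 of 24 members, Ech1 and Acaa1a.

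The mean of Ech1 rose from 2428 ± 347 to 3707 ± 778 (SD, n = 4 each), a 1.53-fold change (log2 fold change 0.61, SE 0.18, DESeq2 adjusted p = 0.0337). The exact two-sided permutation p was 0.0286, and the adjusted p of edgeR was 0.159. The call was lost in 12 of 17 alternatives, while the estimate stayed between 0.44 and 0.87. Leaving out WT 1, WT 2, WT 3, Cd36KO 3 or Cd36KO 4 gave a DESeq2 adjusted p of 0.0606, 0.161, 0.165, 0.118 or 0.0575, and leaving out the unnumbered Cd36KO library gave 0.192 with a log2 fold change of 0.47. Brown adipocyte markers, 9 in all, summed to 19507 to 24799 normalized counts in WT and to 33527 to 42888 in Cd36KO, none of them at 0. Of these, 4 were called higher, and Otop1 and Zic1 had log2 fold changes of -0.15 and 0.0036. Their part in the Ech1 result was not tested. The 15 muscle markers summed to 1010 to 61099 in WT and 356 to 9220 in Cd36KO, with a median log2 fold change of -3.02. DESeq2 and edgeR called 0 of these 15, and 7 had an unadjusted p under 0.05 in DESeq2. With a muscle score as covariate, Ech1 had a log2 fold change of 0.75 (DESeq2 adjusted p = 0.0612). Decr2 had 201 ± 66.8 in WT and 225 ± 39.6 in Cd36KO, and Pecr had 133 ± 36.6 in WT and 161 ± 34.2 in Cd36KO, with adjusted p of 0.821 and 0.671 in DESeq2.

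Alpha-oxidation removes a single carbon from phytanic acid and other branched chains that cannot enter beta-oxidation. Phyh, the hydroxylase of the pathway, had 1334 to 1536 normalized counts in WT and 1526 to 2274 in Cd36KO. The groups overlapped only where Cd36KO 4, at 1526, fell just below WT 4, at 1536. The mean went from 1406 ± 91.5 to 1873 ± 369 (log2 fold change 0.41, SE 0.17), which did not pass after adjustment (DESeq2 adjusted p = 0.164; exact two-sided permutation p = 0.0571). Hacl1, the lyase of the pathway, went the other way at low counts, with 14.1 to 24.7 in WT and 3.34 to 12.97 in Cd36KO (log2 fold change -1.08, SE 0.52, DESeq2 adjusted p = 0.281). Its exons overlap Btd, which had 36.5 normalized counts on the opposite strand.

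The promoters of Ech1, Phyh and Acaa1a are shown because these 3 were the members higher at an unadjusted p under 0.05. The 300 bases run from 250 before to 50 after the start in RefSeq, on build GRCm38.p6 and the plus strand. The Acaa1a window lies inside the gene span given above, which starts at 119339676. The Ech1 window crosses the start of its span at 28825217. They were searched on both strands for AGGTCA, the core element of many nuclear receptors, and for its direct repeat, a second AGGTCA after any 1 base, on which PPAR and RXR sit. Capitals mark the match, which reads TGACCT here because it lies on the minus strand.
Ech1, chr7:28825088-28825387: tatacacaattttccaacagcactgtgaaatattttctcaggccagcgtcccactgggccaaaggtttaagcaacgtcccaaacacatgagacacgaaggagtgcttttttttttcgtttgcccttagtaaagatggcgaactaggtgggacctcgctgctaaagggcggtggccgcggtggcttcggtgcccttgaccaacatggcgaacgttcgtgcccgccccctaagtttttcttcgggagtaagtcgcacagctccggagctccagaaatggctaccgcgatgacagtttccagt
Phyh, chr2:4918746-4919045: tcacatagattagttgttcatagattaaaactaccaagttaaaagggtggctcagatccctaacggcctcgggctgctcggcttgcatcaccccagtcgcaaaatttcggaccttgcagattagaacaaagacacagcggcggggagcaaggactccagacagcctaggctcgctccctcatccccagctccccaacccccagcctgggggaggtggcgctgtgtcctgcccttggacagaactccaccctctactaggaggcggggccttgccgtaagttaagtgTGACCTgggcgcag
Acaa1a, chr9:119341044-119341343: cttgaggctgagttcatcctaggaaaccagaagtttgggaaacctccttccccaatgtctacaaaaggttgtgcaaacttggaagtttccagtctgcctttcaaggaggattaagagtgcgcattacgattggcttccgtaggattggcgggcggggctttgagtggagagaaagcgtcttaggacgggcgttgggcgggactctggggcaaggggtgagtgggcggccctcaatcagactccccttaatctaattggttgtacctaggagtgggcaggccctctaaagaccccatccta
Phyh held 1 such element, at base 287 of the window, and Ech1 and Acaa1a held none. Of the 35 genes 29 were in the table, and 5 of them had the element, Acot4, Cat, Pex11g, Phyh and Scp2, where 18.1% of all genes in the table did. None of the 29 held the direct repeat, which was present in 0.0396% of 32851 promoters of the same length. No member called in either direction was among the 5, and Abcd2 was not in the table.

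Thioesterases release free acids from acyl-CoA. Acot8, which accepts a broad range of chains, had 49.9 ± 17.0 normalized counts in the WT and 66.8 ± 10.7 in the Cd36KO libraries (log2 fold change 0.42, SE 0.29, DESeq2 adjusted p = 0.518). Its exons overlap Snx21, a gene of 112 normalized counts. Acot4, which acts on dicarboxylic chains, had 40.3 ± 5.77 in WT and 43.4 ± 6.45 in Cd36KO.

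Ether lipid synthesis needs Gnpat for the first acyl chain, Far1 for the fatty alcohol and Agps for the ether bond. Gnpat had 377 ± 58.0 normalized counts in the WT and 457 ± 31.9 in the Cd36KO libraries (log2 fold change 0.28, SE 0.16, DESeq2 adjusted p = 0.414), and the overlapping gene 2810004N23Rik, on the other strand, had 193 normalized counts. Far1 and Agps were low, with means of 20.3 ± 12.2 and 30.1 ± 11.0 in WT and of 12.8 ± 3.96 and 21.8 ± 8.97 in Cd36KO. Their estimates were negative, at -0.68 and -0.46. Outside the peroxisome, 7 of 8 ether lipid genes had an adjusted p and none was called, with a median log2 fold change of -0.24.

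Catalase, encoded by Cat, had 843 ± 272 normalized counts in the WT and 822 ± 144 in the Cd36KO libraries (log2 fold change -0.04, 95% interval -0.50 to 0.43). The WT libraries ran from 496 in WT 1 to 1159 in WT 4, and the Cd36KO libraries lay within that range. With the white marker score as covariate, Cat turned to 1.07 and was called higher (DESeq2 adjusted p = 0.0027). Pxmp2, a channel protein of the membrane, had 391 ± 144 in WT and 480.0 ± 112 in Cd36KO. The membrane protein Pxmp4 had 309 ± 103 in WT and 281 ± 48.1 in Cd36KO. Neither of the latter passed the test (DESeq2 adjusted p = 0.684 and 0.875). With the same covariate Pxmp2 was called higher (log2 fold change 1.77, DESeq2 adjusted p = 4.3e-05), and Pxmp4 turned to 0.98 without passing (DESeq2 adjusted p = 0.0731).

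The spread between libraries was larger in WT than in Cd36KO for 26 of the 35 genes, on the scale of log2(normalized count + 1), and for 59.5% of all genes tested. WT 1 was the lowest WT library for 23 of the 35, against 32.1% of all genes, and WT 4 was the highest for 23, against 31.5% of all genes. These shares were not tested against each other. The median over the 35 genes of a library's deviation from the WT mean was -0.29 in WT 1, 0.02 in WT 2, -0.05 in WT 3 and 0.28 in WT 4. In Cd36KO it was 0.10 in the unnumbered library and 0.04, 0.13 and -0.03 in libraries 2 to 4. All Cd36KO medians thus lay between those of WT 1 and WT 4.

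**Figure D3:**
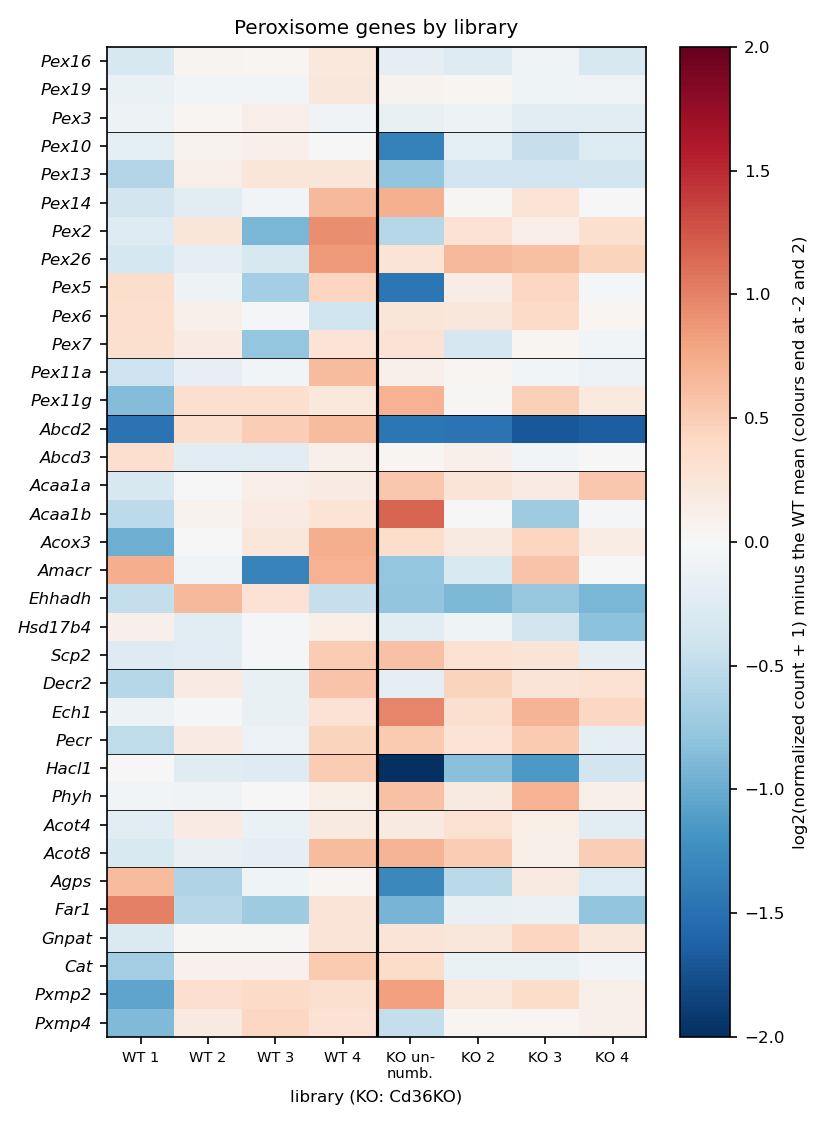
Each library's log2(normalized count + 1) minus the WT mean of the gene, as colour, for the 35 genes (rows, grouped by role) in 4 WT and 4 Cd36KO libraries (columns); red is above the WT mean and blue below, and colours end at 2 in either direction. The WT 1 column is mostly blue and the WT 4 column mostly red, with medians of -0.29 and 0.28, and Abcd2 is blue in WT 1 and in all Cd36KO libraries.

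A further 49 genes with products in peroxisomes were listed beside the 35, and 38 of them had an adjusted p. Agxt, Hao2 and Uox, enzymes best known from liver, had no count in any library. One passed the test, Tysnd1, the protease that cleaves imported enzymes such as oxidases and thiolases into their mature forms. Tysnd1, on chromosome 10 (GRCm38, 61695514 to 61702773, plus strand), had 194, 166, 169 and 168 normalized counts in WT 1 to 4. In Cd36KO it had 292 in the unnumbered library and 309.5, 285 and 267 in libraries 2 to 4, well clear of WT.

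Its mean rose from 175 ± 13.1 to 288 ± 17.6 (log2 fold change 0.72, SE 0.16, DESeq2 adjusted p = 0.00119; exact two-sided permutation p = 0.0286). The edgeR test gave Tysnd1 an adjusted p of 0.0895 and limma one of 0.118, and the call was kept in 12 of 17 alternatives with an estimate of 0.53 to 0.78 over the 17. It was also lost with the white marker score as covariate (log2 fold change 0.53, DESeq2 adjusted p = 0.282) and with the muscle score (0.75, DESeq2 adjusted p = 0.0539). The median log2 fold change of the list was 0.13, against -0.01 for the 34 members, a difference that was not tested. No gene of the list was called lower, and edgeR called none. In edgeR 4 of 38 had an unadjusted p under 0.05, against 1580 of 9793 genes in all.

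Peroxisomal genes are known targets of the nuclear receptor PPARA and its partners and coregulators. Of 14 such regulators 1 was called, Nrip1, a corepressor of nuclear receptors in fat. It fell from 448 ± 80.05 normalized counts in WT to 231 ± 33.9 in Cd36KO (log2 fold change -0.95, SE 0.19, DESeq2 adjusted p = 0.000208), with all Cd36KO values below all WT values. The call was kept in 14 of 17 alternatives and lost in edgeR (adjusted p = 0.0621), in limma (adjusted p = 0.0979) and with the white marker score as covariate (log2 fold change -0.68, DESeq2 adjusted p = 0.181). Ppara itself had 821 ± 128 in WT and 864 ± 189 in Cd36KO (log2 fold change 0.07, 95% interval -0.30 to 0.45). Pparg, the adipogenic receptor, had a log2 fold change of -0.53, Ppargc1a, the coactivator of oxidative genes, one of 0.51 and Prdm16, a factor of brown fat identity, one of 0.78, with DESeq2 adjusted p of 0.247, 0.231 and 0.0572. The median of the 14 was 0.08. An unadjusted p under 0.05 in DESeq2 was reached by 5 of the 14, against 1498 of 9619 genes tested. Among the 5 was Rxra, with a log2 fold change of -0.49 (DESeq2 adjusted p = 0.264). Ppargc1a passed in 3 and Prdm16 in 4 of 17 alternatives. Leaving out WT 1 brought Ppargc1a (log2 fold change 0.69) and Prdm16 (0.97) past the threshold, and leaving out Cd36KO 3 did so for Prdm16 (0.89). With the white marker score as covariate, the estimate for Ppargc1a turned to -0.24 (DESeq2 adjusted p = 0.684).

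Mitochondria take over the chains that peroxisomes have shortened. Of 19 mitochondrial fatty acid oxidation genes, 18 had an adjusted p, 14 of these had a positive estimate, and 3 were called higher in Cd36KO and none lower. Etfb, a subunit of the flavoprotein that accepts electrons from the dehydrogenases, rose by 0.82 on the log2 scale (SE 0.15, DESeq2 adjusted p = 8.1e-05). Acaa2, the mitochondrial thiolase, rose by 0.75 (SE 0.15, DESeq2 adjusted p = 0.000236), and Acads, the short-chain dehydrogenase, rose by 0.68 (SE 0.20, DESeq2 adjusted p = 0.0357). The median of this list was 0.21, beside -0.01 for the peroxisomal members, and edgeR called none of the 18. Of 17 alternatives, 15 kept the call of Etfb and of Acaa2 and 5 kept that of Acads, which leaving out WT 1, WT 2, WT 3, the unnumbered Cd36KO library, Cd36KO 3 or Cd36KO 4 ended with estimates of 0.54 to 0.74. The white fat markers had a median of -1.90 and the brown ones of 0.59. Whether the lists differ from each other was not tested.

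**Figure D4:**
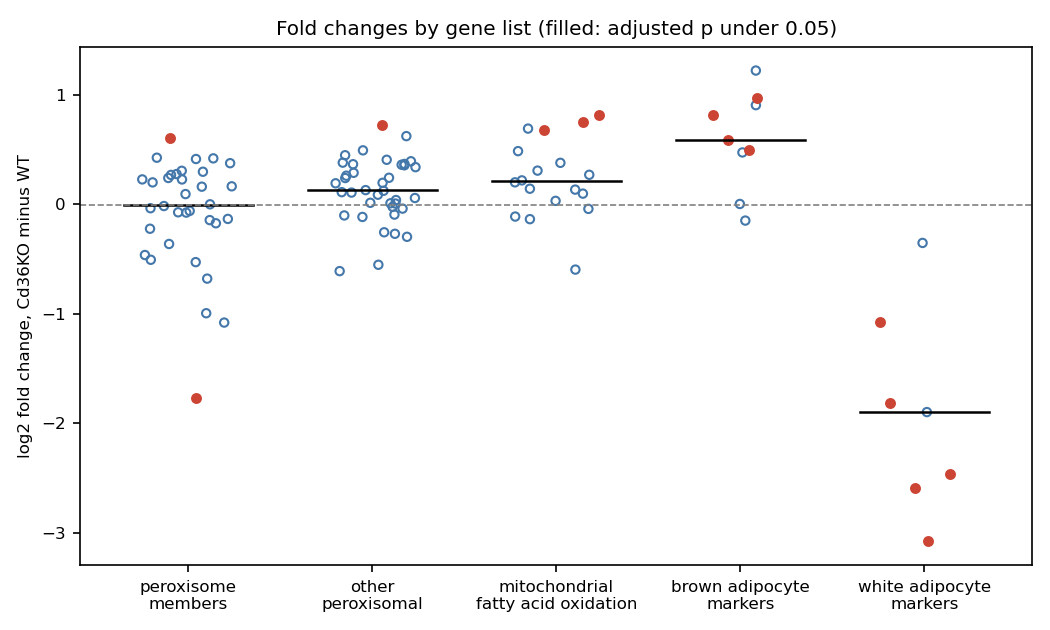
Log2 fold change (Cd36KO minus WT, y axis) of each gene with an adjusted p in 5 gene lists (x axis); points are genes, spread sideways so that they can be seen, filled ones passed an adjusted p of 0.05, and black lines are medians. The peroxisome members centre on 0 with 1 filled point on each side, Abcd2 at the bottom, while the medians are 0.21 for mitochondrial oxidation and -1.90 for white adipocyte markers.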

How the data were processed

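BAT of 4 WT and 4 Cd36KO mice was profiled by bulk RNA-seq. The main test used the deposited counts, which are raw whole numbers for each gene. In the study's methods, the authors trimmed with bbduk, aligned single-end reads to mm10 with STAR and counted with HTSeq-count, whereas the submitters' processing notes name Trimmomatic and HISAT2, so the aligner is uncertain. Strandedness, molecular identifiers and the annotation release are not given in the sources used here, which leaves overlapping genes and near copies uncertain. The authors also deposited log2 values, which equal log2(count divided by size factor + 1).

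Groups came from the sample labels. The study's legend counts separate mice in each group, whereas the labels number replicates only. Of 31053 Ensembl identifiers 30934 were matched to symbols and coordinates of GENCODE M21 (GRCm38), and 17367 had counts. Counts were tested over the whole table with DESeq2 1.42.0 (Wald test with independent filtering and median-of-ratios scaling) in R 4.3.3, with Benjamini-Hochberg adjustment and a threshold of 0.05. The study's methods name DESeq2 too, in another version and without these settings. Alternatives were edgeR 4.0.16 (quasi-likelihood, TMM, filterByExpr), limma 3.58.1 (trend) on the log2 values, TMM factors, a filter of 10 counts in 4 libraries, no filter, a replicate block, muscle and white fat scores as covariates, and each library left out. Single genes were also tested by an exact two-sided permutation over the 70 arrangements of the libraries. Fold changes are unshrunken, and 95% intervals are those of the Wald estimate. The code was tested on simulated data first.

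All 35 members are named. Values per library are given for members that passed DESeq2 or edgeR and for those with a mean of at least 50 normalized counts whose groups did not overlap. Other lists are given by counts, medians and called genes, plus Ppara, Pparg, Ppargc1a and Prdm16. Other genes named were chosen after their values were seen. The members and lists were chosen with earlier results of these data known. Near copies were compared by local alignment of the longest protein-coding transcripts with Biopython 1.88. Figures were drawn with matplotlib 3.10.9.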

Additional observations from a re-analysis of the deposited data

Results flagged for a closer look

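In 11 of 90 groups of 4 libraries tested, from 45 genes named in the text, the highest or lowest library stood apart from the other 3 by Dixon's criterion on the log2(normalized count + 1) scale, where chance gives about 4.5. WT 1 was that library for Abcd2, at 84.85 normalized counts against 302.4 to 370.9 in the other WT libraries. It was also low for Pex11g (24.37 against 52.43 to 56.91), for Pex13 (48.75 against 79.84 to 87.05) and for Pxmp2 (174.2 against 455 to 475.2). For Tysnd1 it was high, at 194.1 against 166.5 to 169.4.

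WT 4 was high for Acot8, at 75.18 against 38.82 to 43.32, and for Pex26, at 30.66 against 12.64 to 14.44. WT 3 was low for Pex7, at 17.64 against 34.82 to 38.82. In the Cd36KO group the unnumbered library stood apart each time. It was high for Cat, at 1037 against 738.8 to 774.1, and low for Pex13, at 42.34 against 56.26 to 57.2, and for Pxmp4, at 209.5 against 300.3 to 313.5.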

How the results depend on the processing

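With DESeq2 on all 8 libraries 1 member was called higher, 1 member was called lower, 1 other peroxisomal gene was called higher and 0 lower, out of 137 genes called higher and 147 called lower. The edgeR test gave 0, 0 and 0 for the first 3 counts and 4 and 10 for all genes, with 7 members, 4 other peroxisomal genes and 1580 genes in all at an unadjusted p under 0.05. Limma called 0 genes in either direction, with 6, 3 and 1558 at that level, against 6, 5 and 1498 in DESeq2. Without a filter, 0 members and 73 genes in all were called higher. With the muscle score as covariate these were 0 and 67, and 0 other peroxisomal genes were higher.

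With the white fat score as covariate 5 of 26 members tested were called higher, Acaa1a, Acox3, Cat, Ech1 and Pxmp2, and 0 lower. Of all 6592 genes tested, 560 were called higher, against 137 of 9619 in the main fit. An unadjusted p under 0.05 was reached by 15 of the 26 members and by 1618 of the 6592 genes. The other peroxisomal genes called higher were 5, Dhrs4, Gstk1, Paox, Pmvk and Prdx5. Tysnd1 was not among these 5 (0.53, adjusted p = 0.282). In that fit Abcd2 reversed to 0.35 and Cat to 1.07, and the median of the members moved to 0.518 while that of all 6592 genes tested was 0.119. The score differs between the groups, and by summed white markers WT 1, at 892, was the only WT library near the Cd36KO range of 779 to 1174. The genotype estimates of this fit thus rest largely on WT 1. The cause of the changed calls was not tested.

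The replicate numbers 2, 3 and 4, which both groups share in their column names, gave correlations of deviations of -0.127, 0.422 and 0.141. Whether same-numbered libraries share more than the number was not tested. With the replicate block, over these 3 pairs, 0 members, 0 other peroxisomal genes and 32 genes in all were called higher. The same 6 libraries without the block, a fit added after seeing the data, gave 0 members and 48 genes in all, and Abcd2 was called lower in both. Tysnd1 had an adjusted p of 0.0651 with the block and 0.00778 without it, and Ppargc1a passed in both (0.0214 and 0.0332). Prdm16 passed without the block and with TMM factors.

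Leaving out each library in turn gave 0 to 1 members called higher, 1 to 5 other peroxisomal genes, 20 to 328 genes in all called higher and 42 to 236 called lower, and a median of the members between -0.03 and 0.16. Ech1 was called only without WT 4 and without Cd36KO 2, and Abcd2 in each of the 8. Without WT 4, 5 other peroxisomal genes and 328 genes in all were higher, without Cd36KO 2, 2 other peroxisomal genes were, and without the unnumbered Cd36KO library 20 genes in all were. Depth limits the 11 members with a mean under 50 normalized counts. The 95% intervals of the 34 reached from 0.283 to 1.03 to either side on the log2 scale. In 21 of the 35 members the estimate took the other sign in at least 1 alternative. TMM factors and the fixed filter kept 1 member called higher and 1 called lower. With TMM factors 4 of 28 members tested had an unadjusted p under 0.05, against 1333 of 7602 genes in all.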

Other observations

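Among the other peroxisomal genes, 5 of 38 had an unadjusted p under 0.05 in DESeq2, against 1498 of all 9619 genes tested. The 4 besides Tysnd1 did not pass after adjustment, and they are named here after their values were seen. Mlycd, malonyl-CoA decarboxylase, had 196 ± 21.5 normalized counts in the WT and 302 ± 75.5 in the Cd36KO libraries (log2 fold change 0.62, SE 0.21, DESeq2 adjusted p = 0.0648) and no overlap between the groups. Slc25a17, a carrier of cofactors in the peroxisomal membrane, had 123 ± 11.3 in WT and 159 ± 5.65 in Cd36KO (log2 fold change 0.37, DESeq2 adjusted p = 0.271), also without overlap. Prdx5, a peroxiredoxin of mitochondria and peroxisomes, had 1301 ± 361 in WT and 1775 ± 376 in Cd36KO (log2 fold change 0.45, DESeq2 adjusted p = 0.295). Idh1, which supplies NADPH in the cytosol and peroxisomes, had 395 ± 185 in WT and 259 ± 58.2 in Cd36KO (log2 fold change -0.61, DESeq2 adjusted p = 0.266). The groups of Prdx5 and Idh1 overlapped. Of the 34 other peroxisomal genes with a mean of at least 50 normalized counts, 3 had all Cd36KO values above all WT values. They were Tysnd1, Mlycd and Slc25a17, and 6.91% of all genes at that level were so separated.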
